A study of Mus musculus with 12 samples.

Results

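Medium spiny neurons are the projection neurons of the striatum, and 8 genes that mark them were read out in RNA from mouse cortex. Drd1a and Tac1 mark the direct pathway neurons, Drd2, Adora2a and Gpr6 mark the indirect pathway neurons, and Ppp1r1b, Rgs9 and Pde10a are used by both. The 8 genes were taken by symbol from a count table of 24062 gene symbols, in which Drd1 is written as Drd1a. All 8 had enough counts to be among the 15440 genes tested. They were selected with their levels in these 12 libraries already known, so their levels and differences are given as a description of these libraries. Counts of the 8 that passed a test are printed beside the share of all genes, and nothing is read from them.

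The study compared cortex of mice at 9 months of age in 4 groups of 3 mice, with 1 library per mouse. WT mice carried neither alteration. Tia1+/- mice lacked 1 allele of Tia1, which encodes an RNA-binding protein of stress granules. PS19 mice carried human tau with the P301S mutation under the Prnp promoter and both alleles of Tia1, and P301S Tia1+/- mice carried the same transgene with 1 allele of Tia1. The mice came from crosses of PS19 with Tia1-/- mice, were males unless noted otherwise, and mice with end-stage disease were left out. The study reported higher Xist and lower Ddx3y, Uty, Eif2s3y and Kdm5d, which are Y chromosome genes, in Tia1+/- than in WT cortex. The sex of each library was not tested here. Groups follow the sample titles. For the libraries titled Tia1+/- and those titled P301S Tia1+/-, the separate genotype field gives the opposite assignment.

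Striatal projection neurons divide into a direct pathway, which expresses the D1 dopamine receptor with substance P and dynorphin, and an indirect pathway, which expresses the D2 dopamine receptor with the adenosine receptor encoded by Adora2a and enkephalin. Dopamine raises cAMP through the D1 receptor and lowers it through the D2 receptor, and adenosine raises it through the Adora2a receptor. Both kinds of neuron degrade cAMP with the phosphodiesterase PDE10A and carry its signal through DARPP-32, the product of Ppp1r1b. Cortex is not without these transcripts, since Drd1a, Tac1, Ppp1r1b and Pde10a are also expressed by groups of cortical neurons.

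The stretches before the transcription starts of the 8 genes were read from the RefSeq promoter table on GRCm38.p6. It held 6 of the 8, without Adora2a and Ppp1r1b. The 4 below are the receptor and neuropeptide genes of either pathway among these 6. Each shows up to 250 bases before the start on the gene's own strand, cut short where the GENCODE M21 gene already begins. Capitals mark the half-site of the cAMP response element (CRE), TGACG, and the GC box, GGGCGG, on either strand.
Drd1a, chr13:54055706-54055908, minus strand: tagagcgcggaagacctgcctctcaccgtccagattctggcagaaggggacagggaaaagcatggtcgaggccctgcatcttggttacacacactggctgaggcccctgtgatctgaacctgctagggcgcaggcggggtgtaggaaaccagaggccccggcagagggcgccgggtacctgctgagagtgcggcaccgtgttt
Tac1, chr6:7554811-7554878, plus strand: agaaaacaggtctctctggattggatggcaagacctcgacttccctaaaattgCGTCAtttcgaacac
Drd2, chr9:49340153-49340402, plus strand: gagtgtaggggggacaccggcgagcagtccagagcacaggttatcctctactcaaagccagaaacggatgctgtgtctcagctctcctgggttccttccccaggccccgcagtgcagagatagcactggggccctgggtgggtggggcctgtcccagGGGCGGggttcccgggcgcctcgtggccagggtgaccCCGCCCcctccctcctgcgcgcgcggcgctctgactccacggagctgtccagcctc
Gpr6, chr10:41072291-41072540, minus strand: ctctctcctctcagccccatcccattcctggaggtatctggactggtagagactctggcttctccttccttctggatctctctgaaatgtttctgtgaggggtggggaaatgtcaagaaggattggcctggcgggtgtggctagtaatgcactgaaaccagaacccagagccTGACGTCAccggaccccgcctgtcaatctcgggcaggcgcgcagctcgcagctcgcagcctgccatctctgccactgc

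In the whole windows of 250 bases, the CRE half-site was present before Tac1 and Gpr6 and absent before Drd1a and Drd2. A half-site was found in 17.8% of the 32851 mouse promoter windows of this length. In Gpr6 the matches on either strand overlap, 78 bases before the start, and form the full palindrome TGACGTCA, which 1.55% of windows hold. The window before Tac1 held half-sites at 197 and 43 bases before the start and a GC box at 107. The window before Drd2 held GC boxes at 93 and 56 bases before the start. Another promoter of Drd1a, not printed because its window lies inside the GENCODE gene, held a GC box at 133 bases before its start. A GC box was found in 32.7% of windows. These are matches of letters only, no binding was measured, and their part in the marker levels was not tested.

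The libraries held between 11978962 and 19146484 counts each. Tia1, the targeted gene, had 75.4 to 93.8 CPM (counts per 1000000 counts, after scaling by the TMM method) in WT, 70.8 to 77.9 in PS19, 72.6 to 77.8 in P301S Tia1+/- and 61.4 to 79.8 in Tia1+/-, so its counts overlapped between genotypes and do not check the labels. Tia1+/- replicate 3 stood apart in the striatal genes, and WT replicate 1 and the 3 P301S Tia1+/- libraries stood apart in olfactory bulb genes, whose summed level was 694 to 1094 CPM there and 6.81 to 159 CPM in the others. Cortical projection neuron genes, the defining markers of the labelled tissue, were detected in every library, but Fezf2 was lowest in Tia1+/- replicate 3 (3.48 CPM) and WT replicate 1 (3.76 CPM). Values are therefore given with and without Tia1+/- replicate 3.

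The 8 markers summed to 1745 CPM in Tia1+/- replicate 3. In the other 11 libraries the sum lay between 135 and 318 CPM, with a median of 174 CPM, so that the highest library held 10.01 times the median and 5.49 times the next library. PS19 replicates 2 and 3 came next, at 318 and 279 CPM. The other 9 libraries lay between 135 and 190 CPM, and these included PS19 replicate 1 at 155 CPM. In bulk RNA, fewer cells of a type and less RNA per cell cannot be told apart.

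**Figure D1:**
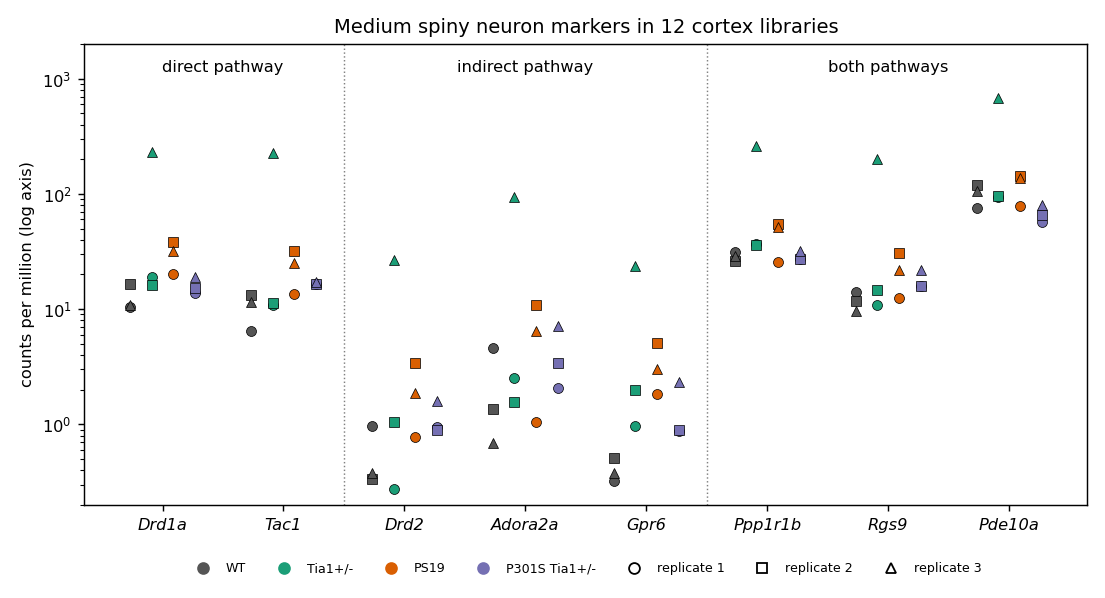
Level of each marker in each of the 12 libraries, in CPM on a log axis, with colours for the 4 groups and symbols for replicates 1 to 3, and dotted lines between the direct, indirect and shared markers. Tia1+/- replicate 3 lies above every other library for each of the 8 genes, and PS19 replicate 2 is the next highest for each.

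Drd1a, the D1 receptor of the direct pathway, lies on chromosome 13 (54051183 to 54055705, minus strand, on GRCm38 in GENCODE M21, as for the genes that follow). Its level was 10.5, 16.6 and 10.95 CPM in WT, 20.3, 38.2 and 32.0 in PS19, 13.9, 15.1 and 19.0 in P301S Tia1+/- and 18.8, 16.2 and 232 in Tia1+/-. Every PS19 library was above every WT library, and every P301S Tia1+/- library was below every PS19 library. The highest library held 14.0 times the median of the other 11.

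Tac1, which lies on chromosome 6 (7554879 to 7565834, plus strand), encodes the precursor of substance P. It measured 6.48, 13.4 and 11.5 CPM in WT, 13.5, 31.7 and 25.1 in PS19, 16.6, 16.4 and 17.3 in P301S Tia1+/- and 10.8, 11.4 and 225 in Tia1+/-. All PS19 libraries exceeded all WT libraries, the closest being PS19 replicate 1 and WT replicate 2. The P301S Tia1+/- libraries lay inside the PS19 range and had the smallest spread of the groups, 16.8 ± 0.431 CPM (SD, n = 3). Tia1+/- replicate 3 held 16.7 times the median of the others.

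Of the indirect pathway genes, Drd2, the D2 receptor (chromosome 9, 49340627 to 49408177, plus strand), had 0.960, 0.338 and 0.380 CPM in WT, 0.779, 3.44 and 1.87 in PS19, 0.943, 0.900 and 1.61 in P301S Tia1+/- and 0.276, 1.05 and 26.9 in Tia1+/-. These are 4 to 43 counts in the 11 lower libraries and 418 counts in Tia1+/- replicate 3. The groups overlapped in each comparison made.

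Adora2a, the adenosine receptor of the indirect pathway (chromosome 10, 75316877 to 75334784, plus strand), had the largest contrast among the 8. It measured 4.64, 1.35 and 0.684 CPM in WT, 1.04, 10.97 and 6.50 in PS19, 2.08, 3.42 and 7.20 in P301S Tia1+/- and 2.55, 1.58 and 94.9 in Tia1+/-. The highest library held 37.2 times the median of the other 11, and those 11 themselves ranged over 16.0-fold. The groups overlapped in each comparison, with PS19 replicate 1 below WT replicates 1 and 2.

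Gpr6, an orphan receptor of indirect pathway neurons that signals through cAMP, lies on the same chromosome (41069977 to 41072285, minus strand). Its level was 0.320, 0.508 and 0.380 CPM in WT, 1.82, 5.12 and 3.01 in PS19, 0.880, 0.900 and 2.32 in P301S Tia1+/- and 0.966, 1.97 and 23.8 in Tia1+/-. WT was lowest, with 4 to 6 counts per library, and both the PS19 and the Tia1+/- libraries were all above it. Unlike the other indirect pathway genes, Gpr6 therefore separated Tia1+/- from WT even with replicate 3 set aside.

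Of the genes shared by the pathways, Pde10a, the phosphodiesterase (chromosome 17, 8525372 to 8986648, plus strand), had the highest CPM. It measured 76.0, 120 and 106 CPM in WT, 78.9, 143 and 137 in PS19, 57.0, 66.0 and 80.3 in P301S Tia1+/- and 93.6, 95.7 and 677 in Tia1+/-. It had the smallest contrast of the 8, 7.24 times the median, and the groups overlapped in each comparison made. P301S Tia1+/- replicate 3 lay just above PS19 replicate 1.

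Ppp1r1b, which encodes DARPP-32 (chromosome 11, 98348404 to 98357796, plus strand), had 31.5, 26.2 and 29.1 CPM in WT, 25.8, 54.6 and 51.8 in PS19, 27.4, 27.4 and 32.1 in P301S Tia1+/- and 36.6, 35.9 and 263 in Tia1+/-. All 3 Tia1+/- libraries were above all 3 WT libraries, while PS19 replicate 1 was the lowest of the 12. Exons of 1700003D09Rik overlap Ppp1r1b on the opposite strand. Since the strand setting of the counting is not given in the sources used here, reads of the pair cannot be told apart.

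Rgs9, a regulator that shortens the signal of G proteins at dopamine receptors (chromosome 11, 109225355 to 109298129, minus strand), had 14.2, 11.7 and 9.66 CPM in WT, 12.5, 30.8 and 21.7 in PS19, 16.0, 16.0 and 22.0 in P301S Tia1+/- and 10.8, 14.7 and 203 in Tia1+/-. Its contrast was 13.8 times the median of the others. The groups overlapped in each of the 3 comparisons.

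Per kilobase of exon, the order of levels differed from that of CPM. In the 11 lower libraries the median was 10.7 CPM per kb for Ppp1r1b, 7.28 for Pde10a, 4.57 for Drd1a, 3.97 for Tac1, 2.30 for Rgs9, 0.834 for Adora2a, 0.541 for Gpr6 and 0.370 for Drd2. Neighbours in this order kept it in 8 to 11 of the 11 libraries. Drd1a and Tac1 were the closest, with Drd1a above Tac1 in 8 libraries and ranges of 2.89 to 10.5 and 1.91 to 9.33 CPM per kb. Ppp1r1b and Pde10a thus had the highest levels and the indirect pathway genes the lowest. In Tia1+/- replicate 3 Ppp1r1b was again highest at 89.8 CPM per kb, followed by Tac1 at 66.3, Drd1a at 63.9, Pde10a at 52.7, Rgs9 at 31.7, Adora2a at 31.0, Gpr6 at 13.3 and Drd2 at 10.6.

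The pathway genes were compared as the direct share, the counts of Drd1a and Tac1 as a percent of those of Drd1a, Tac1, Drd2, Adora2a and Gpr6. Drd1a and Tac1 are also expressed by groups of cortical neurons, so the share does not measure the balance of striatal neurons alone. The part of cortical Drd1a and Tac1 in it was not tested. Direct pathway counts outnumbered indirect ones in every library. The share was 74.1%, 93.2% and 93.9% in WT, 90.3%, 78.2% and 83.4% in PS19, 88.7%, 85.8% and 76.5% in P301S Tia1+/- and 88.7%, 85.7% and 75.8% in Tia1+/-. Group means were 87.1% ± 11.2 (SD, n = 3) in WT, 83.9% ± 6.08 in PS19, 83.7% ± 6.34 in P301S Tia1+/- and 83.4% ± 6.71 in Tia1+/-, and all groups overlapped.

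The library with the highest sum had a low direct share. Its exact 95% binomial interval was 75.0% to 76.7%, from 7096 direct and 2260 indirect counts. Of the other 11 libraries, 10 had a higher share, and only WT replicate 1 was lower, with an interval of 68.6% to 79.1% from 212 and 74 counts. P301S Tia1+/- replicate 3 (73.4% to 79.4%) and PS19 replicate 2 (75.6% to 80.5%) had intervals that reached into that of the highest library. These intervals cover counting error only. With Drd1a and Drd2 alone, Drd1a made up 89.6% in Tia1+/- replicate 3 and 91.6% to 98.6% in the others.

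**Figure D2:**
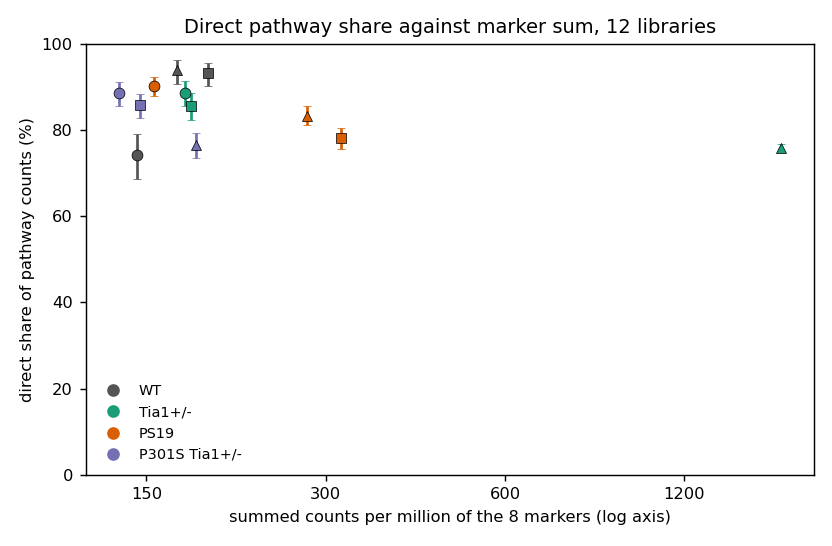
Direct pathway share in percent, with exact 95% binomial intervals, against the summed CPM of the 8 markers on a log axis, 1 point per library, with circles, squares and triangles for replicates 1, 2 and 3. Tia1+/- replicate 3 is the point at 1745 CPM and 75.8%, and the libraries between 135 and 190 CPM range from 74.1% to 93.9%.

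Between Tia1+/- and WT, the fitted log2 fold changes of the 8 genes ranged from 1.52 for Pde10a to 4.45 for Gpr6, with a median of 2.90, where the median over all genes tested was 0.01. Standard errors were 0.65 for Pde10a and 1.17 for Gpr6. With edgeR's quasi-likelihood test adjusted by Benjamini-Hochberg, 0 of the 8 were called and 0.712% of all genes were. At an unadjusted p under 0.05 the count was 8 of 8, where 19.1% of all genes passed. DESeq2's Wald test called 2 of the 8 and 6.33% of all genes, and gave no adjusted p for 4 of the 8. Every Tia1+/- library was higher than every WT library for Gpr6 and Ppp1r1b, 2 of 8, where 9.6% of all genes were so placed. These counts, and those of the 8 in the comparisons that follow, repeat the levels by which the genes were selected, and nothing is read from them.

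Without Tia1+/- replicate 3, the median log2 fold change of the 8 between Tia1+/- and WT was 0.18, and the range was -0.10 for Adora2a to 1.86 for Gpr6. Adora2a and Pde10a then changed sign, to -0.10 and -0.08. Drd1a went from 2.81 to 0.48, Tac1 from 2.98 to 0.10 and Rgs9 from 2.68 to 0.11. Gpr6 kept the largest difference, and was the 1 member of 8 with an unadjusted p under 0.05 in edgeR, where 21.9% of all genes had one.

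In PS19 relative to WT, the log2 fold changes were positive for all 8 genes. They ranged from 0.25 ± 0.64 (SE) for Pde10a to 3.005 ± 1.18 for Gpr6, with a median of 1.20 and a median of -0.01 over all genes. Every PS19 library was above every WT library for Drd1a, Tac1 and Gpr6, 3 of 8, where 9.75% of all genes were so placed. None of the 8 was called by edgeR, which called 0.0% of genes, and 1 of the 8, Gpr6, had an unadjusted p under 0.05, where 16.3% of all genes did. Without Tia1+/- replicate 3, which enters the estimate of the spread, 6 of the 8 had one, among 18.7% of all genes, and with only the WT and PS19 libraries 5 of the 8, among 10.8%. DESeq2 called 0 of the 4 members to which it gave an adjusted p, and 2.88% of all genes. Here too the genes were selected by level, and nothing is read from the counts. Without PS19 replicate 2 the median was 0.82. The 8 olfactory bulb genes moved in the same comparison, with a median log2 fold change of -5.99 and all 8 lower in PS19 at an unadjusted p under 0.05, though edgeR called 0 of them. Their part in the marker values was not tested.

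P301S Tia1+/- relative to PS19 gave negative values for all 8, from -0.26 ± 0.88 (SE) for Rgs9 to -1.25 ± 0.99 for Gpr6, with a median of -0.69. Every P301S Tia1+/- library was below every PS19 library for Drd1a only, 1 of 8, where 18.2% of all genes were so placed. edgeR called 0 of 8 and 0.24% of all genes, and 0 of the 8 had an unadjusted p under 0.05, where 19.3% of all genes did. Without Tia1+/- replicate 3, 4 of the 8 had one, among 22.6% of all genes. With only the libraries of these 2 groups, 4 of the 8 had one, among 33.2% of all genes, and edgeR called 2, Drd1a and Pde10a, among 20.1%. DESeq2 called 0 of the 8 and 5.53% of all genes, and gave no adjusted p for 4 of the 8. Without PS19 replicate 2 the median was -0.34, and Adora2a and Rgs9 turned to 0.16 and 0.05. Olfactory bulb genes moved here too, with a median log2 fold change of 6.53, all 8 higher in P301S Tia1+/- at an unadjusted p under 0.05 and 1, S100a5, called by edgeR. Their part in the marker values was not tested. This comparison and that of PS19 with WT share the PS19 libraries.

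The interaction, the effect of Tia1+/- with P301S tau minus that without it, was negative for all 8 genes, with a median of -3.59 and a range of -5.70 for Gpr6 to -2.34 for Pde10a. edgeR called 0 of 8 and 0.00648% of all genes, and 8 of 8 had an unadjusted p under 0.05, where 22.9% of all genes did. DESeq2 called 2 of the 8 and 8.06% of all genes, and gave no adjusted p for 4 of the 8. Without Tia1+/- replicate 3 the median was -0.84, with Gpr6 at -3.12 and Rgs9 at -0.38, and 3 of the 8 had an unadjusted p under 0.05, among 28.8% of all genes.

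**Figure D3:**
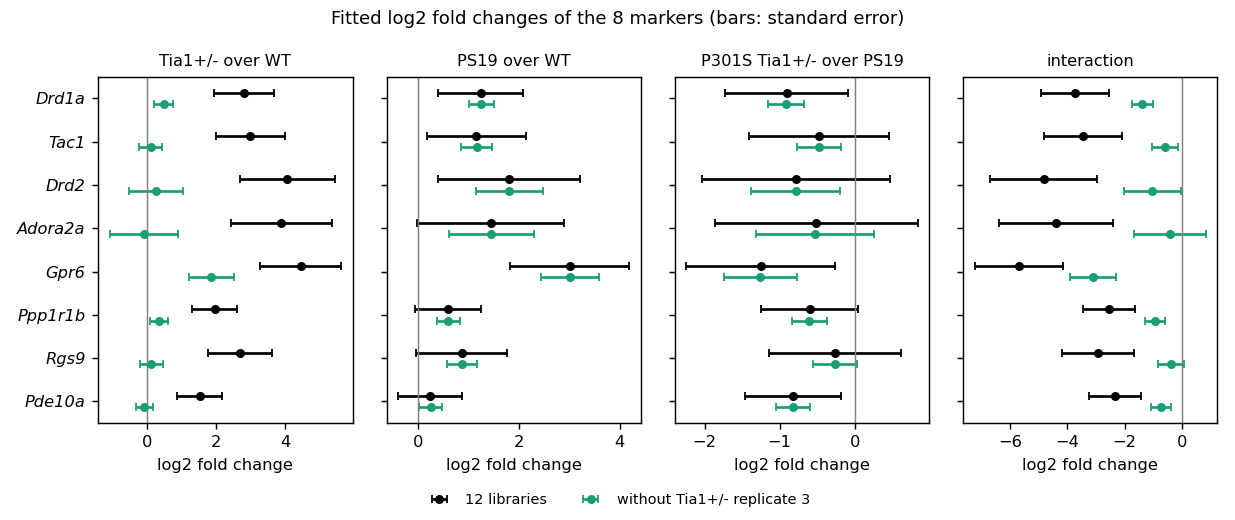
Fitted log2 fold change of each marker in the 4 comparisons, with bars for 1 standard error, from all 12 libraries (black) and without Tia1+/- replicate 3 (green). The Tia1+/- over WT values drop from a median of 2.90 to 0.18 and the interaction moves from -3.59 to -0.84, while the other panels keep their values with narrower bars.

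Among the 15440 genes tested, 38 had at least 4 times the level of every other library in Tia1+/- replicate 3, which is 0.246%. All 8 markers were among them, as were 5 of the 37 genes of other striatal lists. The lists are textbook markers of the same neurons and of their signalling, and were likewise written with earlier results known. Of the 36 listed genes tested, 26 were highest in this library, where 11.1% of all genes were, and 23 were at least 2 times the median of the other 11, where 4.75% of all genes were. Their median ratio to that median was 3.29, against 15.3 for the 8 markers and 1.001 for all genes.

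Of the other direct pathway genes, Pdyn, the dynorphin precursor, measured 126 CPM in Tia1+/- replicate 3 and 4.32 to 27.9 CPM in the others. Isl1, a transcription factor of direct pathway neurons, measured 20.3 CPM there and 0.0 to 2.56 CPM elsewhere. Slc35d3 reached 19.3 CPM but also 9.36 CPM in WT replicate 1, where olfactory bulb genes were high. Chrm4, the M4 muscarinic receptor, was barely above the rest at 55.7 CPM, where the others reached 47.9, and Eya1 was within their range. Between Tia1+/- and WT, 0 of 5 were called by edgeR, and at an unadjusted p under 0.05 edgeR had 2 higher and 0 lower, where 8.63% of all genes were higher and 10.5% lower. Without Tia1+/- replicate 3 these counts were 0 higher and 2 lower, where 10.1% of all genes were higher and 11.9% lower.

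The other indirect pathway genes were similarly mixed. Penk, the enkephalin precursor, measured 522 CPM in Tia1+/- replicate 3, 225 in WT replicate 1 and 15.8 to 120 in the other 10. Gpr52, a receptor that raises cAMP, measured 28.7 CPM against 2.08 to 13.2. Sp9, a transcription factor, was higher in WT replicate 1 (21.9 CPM) than in Tia1+/- replicate 3 (7.99 CPM), and Grik3 and Ptprm stayed close to the other libraries. Of these 5, edgeR called 0 between Tia1+/- and WT. At an unadjusted p under 0.05, 2 were higher and 0 lower, where 8.63% of all genes were higher and 10.5% lower. Without Tia1+/- replicate 3, 1 was higher and 2 were lower, where 10.1% of all genes were higher and 11.9% lower.

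Of the 12 genes of dopamine and cAMP signalling, 10 were above every other library in Tia1+/- replicate 3. Gnal, the G protein subunit that couples D1 and adenosine receptors to adenylyl cyclase, measured 493 CPM against 102 to 194. Its partner Gng7 measured 214 CPM against 14.2 to 59.8, and Adcy5, the main adenylyl cyclase of the striatum, 339 CPM against 63.4 to 121. Arpp21 and Hpca were less than 2-fold above the median, at ratios of 1.66 and 1.48, and Ngef was within the range of the others. Rgs9bp, the anchor of RGS9 proteins in the retina, was below every other library at 0.129 CPM. That value is 2 counts, and the other libraries were also low, at 0.338 to 0.989 CPM. edgeR called 0 of the 12 between Tia1+/- and WT. At an unadjusted p under 0.05, 6 were higher and 0 lower, where 8.63% of all genes were higher and 10.5% lower. Without Tia1+/- replicate 3, 1 was higher and 0 lower, where 10.1% of all genes were higher and 11.9% lower.

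Among striatal transcription factors, Rarb measured 86.2 CPM against 9.39 to 20.3, Foxp2 78.2 against 8.29 to 31.1 and Rxrg 37.6 against 1.52 to 9.61. Bcl11b, which is also expressed in deep cortical layers, was 2.14 times the median. Meis2 was higher in WT replicate 1 (489 CPM) than in Tia1+/- replicate 3 (382 CPM), and Foxp1, Ebf1 and Ikzf1 were within the range of the others. Six3 was too low to be tested. Of the 9 tested, edgeR called 0 between Tia1+/- and WT. At an unadjusted p under 0.05, 4 were higher and 0 lower, where 8.63% of all genes were higher and 10.5% lower. Without Tia1+/- replicate 3, 1 was higher and 1 lower, where 10.1% of all genes were higher and 11.9% lower. Among channel and cytoskeletal genes, Scn4b, a sodium channel subunit, measured 296 CPM against 8.72 to 108 and Syndig1l 27.8 against 1.04 to 7.28, while Kcnh4 was within the range of the others. None of these 5 was called by edgeR or had an unadjusted p under 0.05, with or without Tia1+/- replicate 3.

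**Figure D4:**
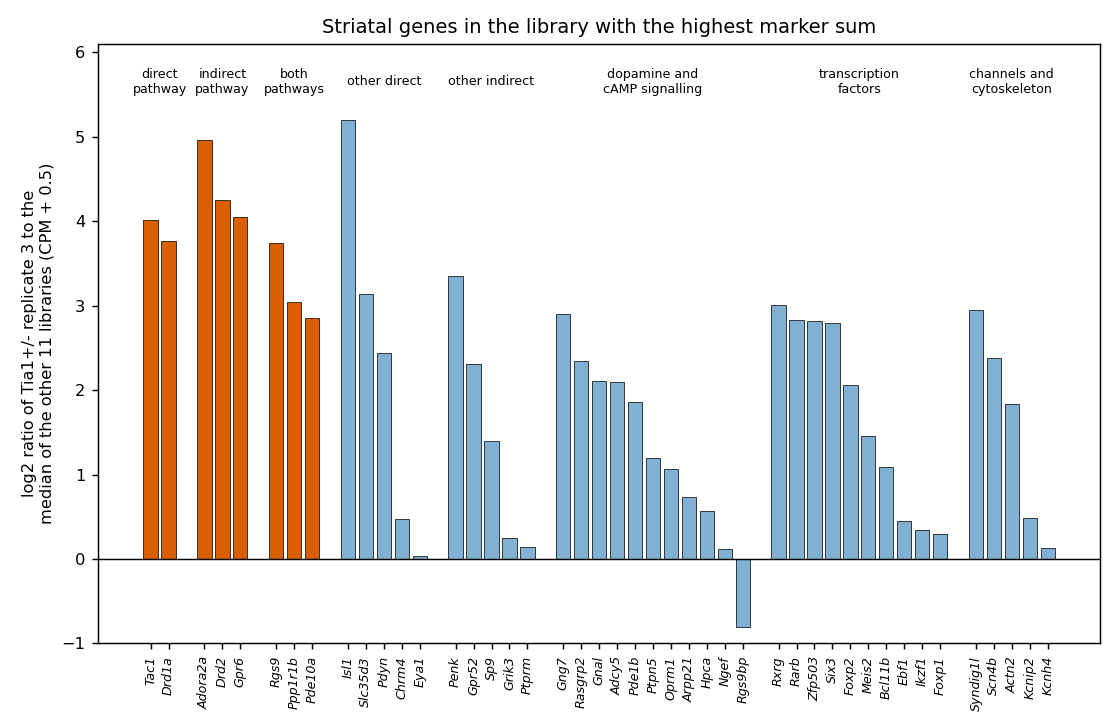
Log2 ratio of Tia1+/- replicate 3 to the median of the other 11 libraries, after adding 0.5 to each CPM, for the 8 markers (orange) and 36 of the 37 other striatal genes (blue), grouped by list. The markers lie between 2.85 and 4.97, and the other genes run from -0.81 for Rgs9bp (2 counts in this library) to 5.20 for Isl1.

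In the other comparisons not all striatal lists moved in the direction of the 8 markers. The median log2 fold changes by list are for PS19 relative to WT, then P301S Tia1+/- relative to PS19. They were 0.33 and -0.40 for dopamine and cAMP signalling, and 0.37 and -0.17 for transcription factors. They were -0.09 and 0.20 for other direct pathway genes and -0.47 and 0.71 for other indirect ones. Channel and cytoskeletal genes had -0.17 and 0.38. Over the 36 other striatal genes, the median log2 fold change was 0.16 in PS19 relative to WT and -0.06 in P301S Tia1+/- relative to PS19, where the 8 markers had 1.20 and -0.69. It was 0.74 for Tia1+/- relative to WT, and -0.0021 without Tia1+/- replicate 3. DESeq2 called 6 of the 36 higher and 0 lower between Tia1+/- and WT. Of the 15440 genes it called 365 higher and 613 lower. Among the 6 were Gpr52, Zfp503, Adcy5, Foxp2 and Ptpn5, each of which was highest in Tia1+/- replicate 3.

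Markers of other cells moved with the 8 genes in the same library. All 5 listed genes of striatal cholinergic interneurons were highest in Tia1+/- replicate 3, where they summed to 70.4 CPM, against 0.640 to 8.97 CPM in the others. Chat, which makes acetylcholine, measured 15.3 CPM against 0.240 to 1.36, and Slc5a7, the choline transporter, 39.8 CPM against 0.240 to 6.08. Cortical projection neuron genes summed to 560 CPM there, below the 718 to 1609 CPM of the others. Of these 10 genes, 5 were below every other library. The 718 CPM was that of WT replicate 1, where the 8 markers summed to 144 CPM. The list's level was also taken as the median over its genes of log2(CPM + 0.5) minus the gene's median over the 12 libraries. It was -1.40 in WT replicate 1 and -1.31 in Tia1+/- replicate 3, so WT replicate 1 was lowest. Gad2, which makes GABA, measured 610 CPM in Tia1+/- replicate 3 against 126 to 359. Vip and Cck were below all others there, at 14.0 and 74.2 CPM. Hippocampal genes summed to 175 CPM against 45.8 to 88.6, of which Wfs1, also expressed in striatum, made up 149 CPM. The 7 general neuronal genes summed to 4984 CPM against 5289 to 8304. The part of these cells in the marker levels was not tested.

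Several lists stayed within the range of the other libraries. In Tia1+/- replicate 3, oligodendrocyte genes summed to 3116 CPM against 1715 to 4051, microglial genes to 409 against 278 to 538, astrocyte genes to 3874 against 3164 to 5221 and endothelial genes to 169 against 150 to 233. The glial and vascular genes, which are expressed in every brain region, did not set this library apart. Olfactory bulb genes summed to 148 CPM, against 9.04 and 7.49 CPM in Tia1+/- replicates 1 and 2, above the 6.81 to 18.6 CPM of PS19 and far below WT replicate 1. Midbrain dopamine neuron genes summed to 37.3 CPM against 31.6 to 62.5, with Pitx3 at 0 counts. Thalamic genes reached 72.3 CPM against 50.8 to 92.4, hypothalamic genes 12.3 against 2.89 to 74.6 and choroid plexus genes 44.6 against 4.59 to 48.9, of which Clic6 made up 32.5 CPM. None of these regional sums exceeded the highest of the other libraries. The cortical interneuron list summed to 1687 CPM against 920 to 1813.

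**Figure D5:**
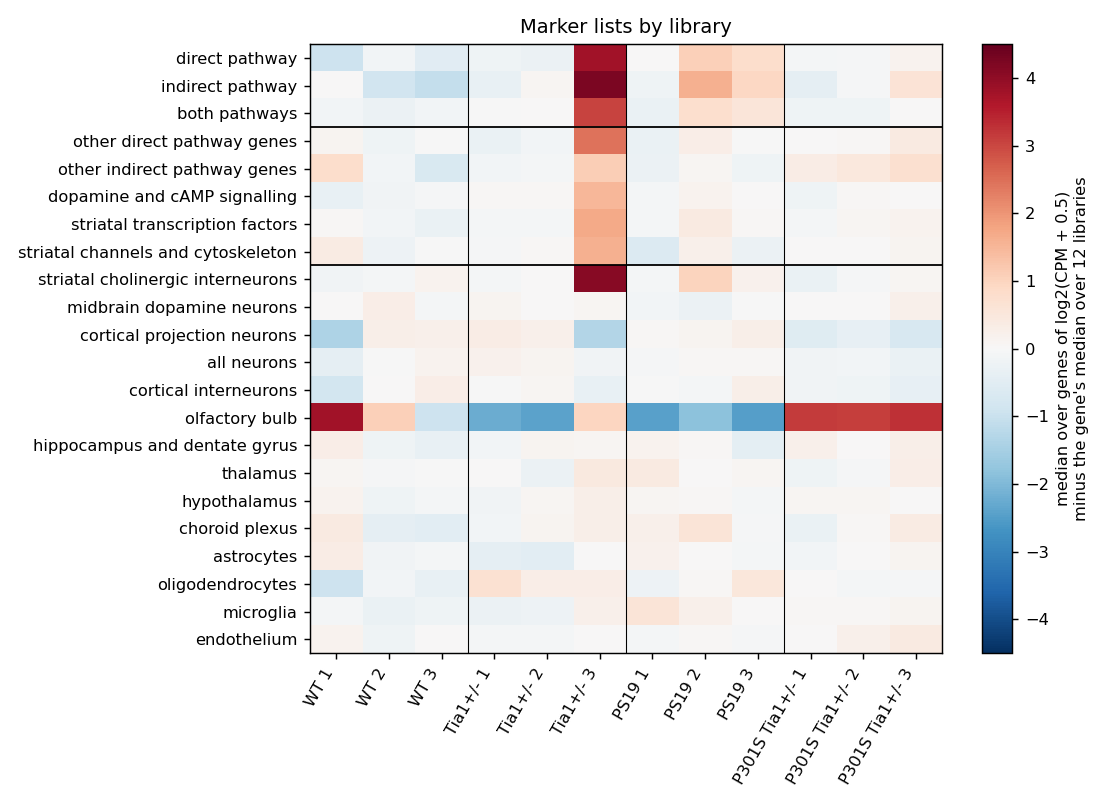
Level of each of 22 gene lists in each library, as the median over the list's genes of log2(CPM + 0.5) minus the gene's median over the 12 libraries (red above, blue below), with lines between the markers, the other striatal lists and the lists of other cells. The striatal and cholinergic rows are highest in Tia1+/- replicate 3, and the olfactory bulb row is highest in WT replicate 1 and the P301S Tia1+/- libraries.

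With Tia1+/- replicate 3 left aside, all 28 pairs of the 8 markers had a positive Pearson r across the other 11 libraries. Of these pairs, 23 had an r above 0.5 in log2(CPM + 0.5), with a median of 0.70. The share over all gene pairs was not computed. The highest r was 0.97 for Drd2 and Rgs9 (Spearman 0.88) and the lowest 0.24 for Adora2a and Pde10a (Spearman 0.14). Drd1a and Tac1, the direct pathway genes, had 0.84 (Spearman 0.65), and Drd2 and Adora2a, the indirect pathway receptors, 0.81 (Spearman 0.74). Drd1a and Drd2 had 0.68 (Spearman 0.39). The values of Pde10a ran from 0.24 with Adora2a and 0.26 with Rgs9 (Spearman 0.07) to 0.69 with Ppp1r1b (Spearman 0.55). The part of PS19 replicates 2 and 3, which had the highest sums of the 11, was not tested. The points share the libraries, their dissection and their scaling, so the values describe these libraries only.

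The gene whose pattern was most like the mean of the 8, outside the 8, was Isl1, with a Pearson r of 0.98 (Spearman 0.86) over 12 libraries and 0.95 (Spearman 0.81) over the 11. Over 12 libraries the next were Prkch, Sh3rf2, Lrrc10b, Rarb, Adcy5, Gpr149, 1700003D09Rik, Serpina9 and Gnal, with r of 0.96 to 0.98. Their Spearman values ran from 0.63 for 1700003D09Rik to 0.96 for Lrrc10b. Without the 2 libraries farthest from the median, their r ran from 0.60 for Gpr149 to 0.89 for Lrrc10b. Exons of 1700003D09Rik overlap those of the marker Ppp1r1b, and the part of shared reads in its r was not tested. Over 11 libraries the next were Lrrc10b, Sh3rf2, Zfhx3, Prkch, Serpina9, Maats1, Mafk, Fam154b and Ano5, with r of 0.86 to 0.94. In both lists of 10 were 5 genes, Isl1, Lrrc10b, Prkch, Serpina9 and Sh3rf2. Without the pair of libraries farthest from the median, r of Isl1 over the 11 was 0.82 and that of Mafk 0.49. Maats1, Mafk and Fam154b were not above the other libraries in Tia1+/- replicate 3, where Maats1 measured 0.773 CPM against 0.684 to 2.48.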

How the data were processed

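The authors extracted total RNA from cortex, made stranded paired-end libraries, used Bowtie and TopHat (TopHat2 2.0.6 in the submitters' processing notes) for alignment to mm10 and deposited raw counts per gene symbol from featureCounts. The strand setting and the annotation are not given in the sources used here. Counts were normalised by TMM and tested in edgeR 4.0.16 (R 4.3.3) with the quasi-likelihood F test over all 12 libraries, with a mean per group, on the 15440 genes kept by filterByExpr, and p-values were adjusted by Benjamini-Hochberg at 0.05. The standard errors given for edgeR were taken as the absolute log2 fold change divided by the square root of the F statistic. The study's methods name DESeq2, so its Wald test (DESeq2 1.42.0) was an alternative. The fit was tested on simulated data with the same spread for every gene and no outlying library. That test does not cover data with an outlying library. The labels do not say whether replicates came from separate litters, so p-values measure the spread between these mice. The members and lists were chosen with earlier results of these data known. Genes named are the 8 markers, list genes with the highest mean CPM or described for their range, and the 10 genes most like the markers. Values of some listed genes are not reported here. Of 139 listed genes, 138 were placed in GENCODE M21. Replicate numbers did not pair the libraries (7 of 18 pairs with a correlation of residuals above 0.1).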

Additional observations from a re-analysis of the deposited data

How the results depend on the processing

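The number of genes called varied widely with the test and the libraries used, and the markers' medians moved with the libraries as well. DESeq2's Wald test called 445 genes between PS19 and WT, 854 between P301S Tia1+/- and PS19, 978 between Tia1+/- and WT and 1245 for the interaction, where edgeR called 0, 37, 110 and 1. Fits of only the libraries compared called 3025 between P301S Tia1+/- and PS19, 2 of them markers, and 6 between Tia1+/- and WT. Without a filter on low counts 73 were called between Tia1+/- and WT and 5 for the interaction, and with at least 10 counts in every library 15 between P301S Tia1+/- and PS19 and 0 for the interaction. With the replicate number as a block, 7, 9 and 0 were called in these last 3 comparisons and 0 between PS19 and WT, and the markers' medians were 1.07, -0.73, 2.23 and -2.86. Leaving out 1 library in turn gave 0 to 1 genes between PS19 and WT, 6 to 1606 between P301S Tia1+/- and PS19 (highest without WT replicate 1), 8 to 497 between Tia1+/- and WT and 0 to 1035 for the interaction (both highest without WT replicate 3). The cause was not tested. The markers' median ranged from 0.18 to 3.42 between Tia1+/- and WT, from -4.13 to -0.84 for the interaction, from 0.82 to 1.46 between PS19 and WT and from -1.07 to -0.34 between P301S Tia1+/- and PS19. The median direct share was 85.8%, 94.1% with Drd1a and Drd2 only and 76.1% without Tac1. The summed level of the highest library stayed at 9.89 to 10.2 times the median without any 1 other library. Counts of 4 to 6 per library limit Gpr6 in WT, and the filter of 10 counts removes it with Drd2 and Adora2a.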

Other observations

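Outside the markers and the other striatal lists, 25 genes, of which 23 were in no list used here, were at least 4 times as high in Tia1+/- replicate 3 as in every other library, and those named here were chosen after their values were seen. Ptprv, a receptor-like phosphatase gene, stood 10.2 times above the next library. Sh3rf2 stood 9.31 times, Gpr149, an orphan receptor, 8.56 times, and Slc10a4, a vesicular transporter of cholinergic and monoaminergic neurons, 7.998 times above it. The neuropeptide gene Nts stood 5.63 times above, Tacr3, the neurokinin B receptor, 6.18 times, Galr1, a galanin receptor, 4.57 times and Cd4, better known from T cells, 5.52 times. Ido1, an enzyme of tryptophan breakdown, stood 4.31 times above.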
